A study of Mus musculus with 4 samples.

Results

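Psmb11, Prss16, Ctsl, Ctss, Ctsb, Ctsd and Ctsh are 7 proteases with which thymic epithelial cells (TECs) cut proteins into the peptides they present. They were matched by symbol among the 31053 genes of 4 single-cell RNA-seq libraries of mouse TECs, and 7 of 7 were found. Their UMIs (unique molecular identifiers, each counted as 1 RNA molecule) were summed in cell classes set by other marker genes. The libraries came from C57BL/6 wild-type (WT) mice and from Cd40-/- mice on the same background, sorted as EpCAM+CD45-TER119- cells at 6 weeks of age. Mice of each genotype had received either an antibody that neutralizes RANKL (RANKL-Ab, clone OYC1) or a rat control IgG, injected under the skin at 5 mg/kg at 4 weeks of age, 2 weeks before analysis. The 4 conditions are named WT-Control and WT-RANKL-Ab for the WT mice, and Cd40-/- Control and Cd40-/- RANKL-Ab for the deficient mice, and sets of 4 values below follow this order. Each condition was 1 library pooled from 3 mice, so no test between conditions was possible, and every interval given is a 95% interval that covers counting error only.

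Developing T cells are first selected in the thymic cortex, on peptides shown by cortical TECs (cTECs), and then screened in the medulla on peptides shown by medullary TECs (mTECs) and dendritic cells. Psmb11 encodes the beta5t subunit, which takes the place of the chymotrypsin-like subunit in the thymoproteasome of cTECs and shapes the class I peptides for positive selection of CD8 T cells. Prss16 encodes the thymus-specific serine protease and Ctsl encodes cathepsin L, and both act in the endosomal pathway that makes class II peptides and supports CD4 T cell selection in the cortex. Ctss encodes cathepsin S, which removes the invariant chain in dendritic cells and other class II presenting cells, and Ctsb, Ctsd and Ctsh encode the broadly expressed lysosomal proteases cathepsins B, D and H. RANKL and CD40 ligand are signals from lymphoid cells that maintain mature mTECs.

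After filtering, 10218, 7164, 8591 and 2082 cells remained, with median totals of 7622, 6086, 6267 and 7532 UMIs per cell. Cd40 itself stood at 110, 28.8, 5.75 and 4.75 UMIs per 1000000 UMIs (CPM), so it was low but not 0 in both Cd40-/- libraries. The TEC markers Epcam, Krt8, Krt18 and Foxn1 were detected in each library, at a summed 3985 to 6708 CPM. Classes are called "-like" since they were set by limits on marker genes per cell, and 5.14% to 13.7% of the cells of a library lay near such a limit. The Cd40-/- Control and Cd40-/- RANKL-Ab libraries shared 205 barcodes, or 9.85% of the smaller library, against 0.817% to 1.42% for the other pairs. In 182 of the 205 the Cd40-/- Control barcode held far fewer UMIs than the other, with medians of 702 and 25079, and 107 of the 205 fell in the same class. Leaving out all shared barcodes took 1 of 73 ratios of members below the 2-fold limit used here. Cells that passed the limits for both cTEC and T cell markers, 17, 118, 301 and 90 in number, are kept apart from the cTEC-like class. Outside WT-Control, where they were too few to rank genes, the T cell genes Trbc1 and Trbc2 were the most raised in them over the other cells. In Cd40-/- Control, Psmb11 was among the 10 most raised as well.

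Over all cells, Psmb11 stood at 79.0, 442, 405 and 988 CPM and Prss16 at 181, 1230, 1139 and 2397 CPM. Ctsl was likewise lowest in WT-Control and highest in Cd40-/- RANKL-Ab, at 1347, 4447, 3053 and 7418 CPM. Ctss and Ctsh had the opposite order, with Ctss at 205, 75.4, 151 and 12.8 CPM and Ctsh at 337, 65.8, 279 and 17.3 CPM. Cd40-/- RANKL-Ab therefore held 12.5-fold more Psmb11 than WT-Control (interval 12.2 to 12.8), 16.0-fold less Ctss (14.1 to 18.2) and 19.5-fold less Ctsh (17.5 to 21.8). Ctsb (126, 154, 130 and 142 CPM) and Ctsd (63.4, 71.6, 49.0 and 95.5 CPM) were the members with the narrowest range. In such sums, more cells of a type and more RNA per cell cannot be told apart, and the classes differed in size. cTEC-like cells were 0.998%, 5.36%, 7.39% and 13.1% of cells, and Aire+ mTEC-like cells numbered 2360, 221, 1443 and 4. The members are therefore described class by class.

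**Figure D1:**
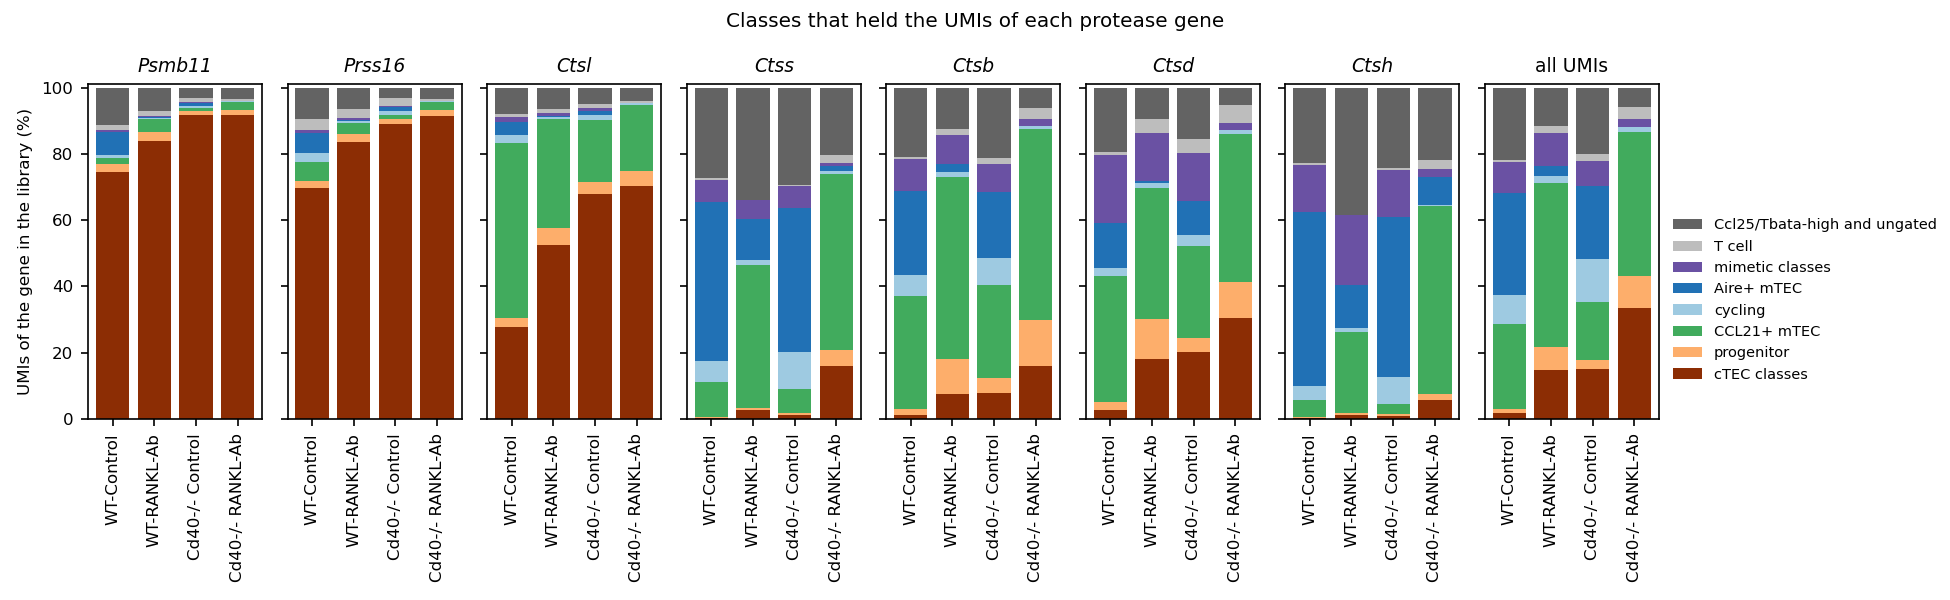
Share of each protease's UMIs that came from each group of cell classes (stacked bars, percent), 1 panel per protease and 1 for the UMIs of all genes, with 1 bar per library. The cTEC-like class alone gave 46.9% to 56.6% of the Psmb11 UMIs in every library. In the bars it is drawn as 1 segment with cells that also passed the T cell or CCL21+ limit. The Aire+ mTEC-like class gave 52.6% of the Ctsh UMIs in WT-Control and 8.46% in Cd40-/- RANKL-Ab.

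Psmb11 (ENSMUSG00000072423, GRCm38 chr14:54621433-54629556, + strand) was concentrated in the cTEC-like class, whose level was 3626, 3210, 2803 and 3116 CPM. In WT-Control this was 660-fold above the CCL21+ mTEC-like class at 5.49 CPM (interval 556 to 790, from 4261 and 134 UMIs) and 197-fold above the Aire+ mTEC-like class at 18.4 CPM (180 to 216). The progenitor-like class lay between them at 163, 177, 188 and 158 CPM, 22.3-fold below the cTEC-like class in WT-Control (19.2 to 26.0). The 12 classes of WT-Control with at least 20 cells were ranked. Cells in no class, or with Ccl25 and Tbata but few other cTEC markers, were left out. Among the ranked classes the T cell-like class came second at 212 CPM, with an interval that overlapped that of the progenitor-like class. The cycling, enterohepatic, CCL21+ mTEC, keratinocyte and tuft-like classes did not differ beyond their intervals, at 3.82 to 6.28 CPM. Too small to be ranked, at 17 cells each, but at higher levels than the T cell-like class were 2 further classes. Cells with cTEC and T cell markers held 1222 Psmb11 UMIs of 446970, and those with cTEC and CCL21+ markers 141 of 207488. The 232 left-out cells with Ccl25 and Tbata were also above the T cell-like level, with 590 UMIs of 2414581 against 123 of 580083. They held 7.84% of the Psmb11 UMIs of WT-Control. The cTEC-like class held 1.23%, 7.51%, 6.78% and 16.5% of all UMIs but 56.6%, 54.5%, 46.9% and 52.2% of the Psmb11 UMIs. Cells with both cTEC and T cell markers held a further 16.2%, 23.4%, 43.4% and 33.6% of the Psmb11 UMIs. They held 0.469%, 4.81%, 7.48% and 13.4% of all UMIs. Outside WT-Control their Psmb11 level was 2150, 2354 and 2477 CPM. Their share of Psmb11 was highest in Cd40-/- Control, where that of the cTEC-like class was lowest. The transcription factor FOXN1 is known to bind an element with the core GACGC, and 2 copies, on the opposite strand, were found in the 250 bases before the Psmb11 start in RefSeq (GRCm38.p6), 239 and 62 bases from it. That start lies 3877 bases inside the GENCODE gene, and all 250 bases are in a non-coding part of an exon of another Psmb11 transcript, so they are not upstream of every transcript. The core was searched on both strands and is common, in 22.6% of 32851 promoters, so the match is a description of these letters and not of a site in use. The 27 bases around each copy are shown because Psmb11 encodes the subunit that defines the thymoproteasome, with the core in capitals as read on the + strand.
Psmb11, chr14:54625060-54625086: gctgacaggtgGCGTCttcagagtgta
Psmb11, chr14:54625237-54625263: gcttctccacaGCGTCctcctcctcct

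To compare shares of cells at equal depth, every cell was thinned at random to 1000 UMIs, and 570, 492, 806 and 74 cells below this total were left out. Psmb11 was then found in 94.3%, 89.9%, 86.5% and 89.5% of cTEC-like cells (98.0%, 97.9%, 95.3% and 98.2% before thinning). In the progenitor-like class the thinned share was 11.3%, 9.20%, 13.1% and 14.8% (27.8%, 30.3%, 34.1% and 40.7% before). T cells should lack Psmb11, but the T cell-like class still gave 3.12%, 6.84%, 11.1% and 4.24% (9.72%, 14.7%, 18.7% and 16.2% before). Its barcodes could hold cTEC markers below the cTEC limit of 100 UMIs per 10000, so it is not a background level. A share below that of the T cell-like class therefore does not show a lack of expression, for this or the other members. Median depths were 9226, 7592, 7225 and 10458 UMIs for the thinned cTEC-like cells against 6150, 2322, 2867 and 1661 for the T cell-like cells. The CCL21+ mTEC-like share of 0.492%, 2.57%, 2.10% and 4.22% (2.82%, 11.8%, 8.14% and 19.3% before) and the tuft-like share of 0.50%, 1.41%, 2.07% and 1.75% (2.46%, 6.32%, 8.47% and 17.2% before) were below that of the T cell-like class after thinning. Before thinning, in Cd40-/- RANKL-Ab both were above it. No expression of Psmb11 by medullary cells is read from these shares, and the source of these UMIs was not tested.

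**Figure D2:**
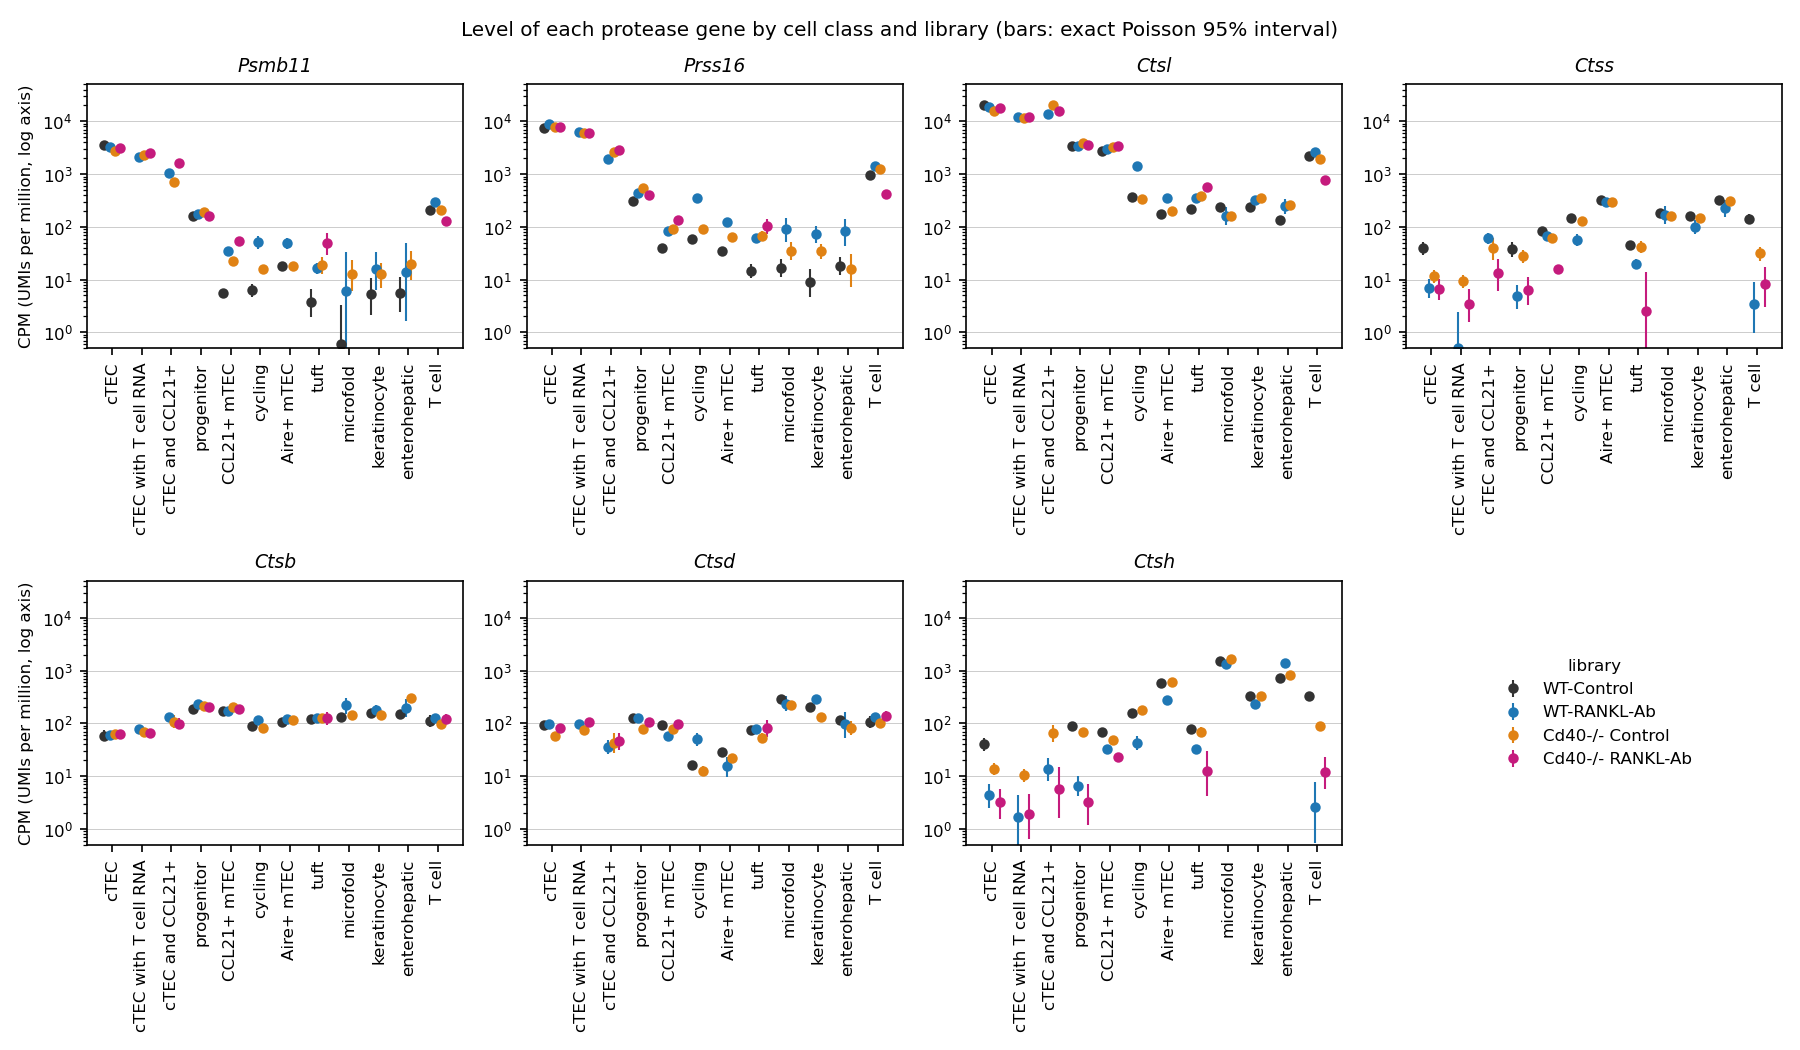
Level of each protease in 12 cell classes, in CPM on a log axis, where a library held at least 20 cells of the class, 1 panel per gene, with 1 point per library and 95% Poisson intervals, with values under 0.5 CPM drawn at the floor of the axis. Psmb11 and Prss16 peak in the cTEC-like class, as does Ctsl except in Cd40-/- Control, where cells with both cTEC and CCL21+ markers are higher (20139 against 15785 CPM), Ctss and Ctsh are near their lowest there, and Ctsb varies least.

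Prss16 (ENSMUSG00000006179, chr13:22002173-22009742, - strand) was likewise highest in the cTEC-like class and lower in the progenitor-like class. Its level in the cTEC-like class was 7624, 8948, 7890 and 7732 CPM, against 312, 432, 541 and 400 CPM in the progenitor-like class and 40.4, 84.8, 91.5 and 133 CPM in the CCL21+ mTEC-like class. The WT-Control ratio was 189-fold over the CCL21+ mTEC-like class (177 to 202), 215-fold over the Aire+ mTEC-like class (202 to 230) and 24.4-fold over the progenitor-like class (22.0 to 27.2). The 2 medullary classes were in the opposite order to Psmb11 in WT-Control, with Prss16 at 35.4 CPM in the Aire+ mTEC-like class. After thinning, Prss16 was found in 89.8%, 93.2%, 94.9% and 94.2% of cTEC-like cells (96.1%, 99.5%, 97.6% and 98.2% before). The CCL21+ mTEC-like share of 2.95%, 6.41%, 6.52% and 10.9% (18.5%, 30.9%, 28.4% and 45.6% before) did not exceed the 12.5%, 16.3%, 18.1% and 10.9% of the T cell-like class after thinning (19.4%, 21.6%, 25.1% and 25.9% before), but exceeded it before thinning in all libraries but WT-Control. No expression of Prss16 in CCL21+ mTEC-like cells is read from these shares. The 2 cortical proteases were not in the same proportion in all classes: Psmb11 was 32.2%, 26.4%, 26.2% and 28.7% of their joint UMIs in the cTEC-like class and 12.0%, 29.1%, 19.8% and 29.2% in the CCL21+ mTEC-like class.

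Ctsl (ENSMUSG00000021477, chr13:64359337-64370890, - strand, overlapped by the antisense gene Gm47123 and the pseudogene Gm49230) was high in cTEC-like cells, lower in progenitor-like and CCL21+ mTEC-like cells, and low in Aire+ mTEC-like cells. The cTEC-like class ranked first except in Cd40-/- Control, where cells with both cTEC and CCL21+ markers were higher at 20139 CPM. It stood at 20841, 18477, 15785 and 18316 CPM in the cTEC-like class, at 3358, 3363, 3864 and 3516 CPM in the progenitor-like class and at 2776, 2949, 3261 and 3423 CPM in the CCL21+ mTEC-like class. The Aire+ mTEC-like class had 176, 347 and 199 CPM in the first 3 libraries, and the 4 such cells of Cd40-/- RANKL-Ab are not compared. Thus in WT-Control the cTEC-like class was 7.51-fold above the CCL21+ mTEC-like class (7.40 to 7.62) and 118-fold above the Aire+ mTEC-like class (115 to 122), while the CCL21+ mTEC-like class was itself 15.8-fold above the Aire+ mTEC-like class (15.3 to 16.2). After thinning, Ctsl was found in 94.3%, 97.8%, 97.1% and 98.4% of cTEC-like cells (97.1%, 99.5%, 99.2% and 99.3% before) and in 79.0%, 78.5%, 81.0% and 87.5% of CCL21+ mTEC-like cells (95.4%, 96.5%, 96.9% and 98.7% before). The Aire+ mTEC-like share of 12.0%, 30.3% and 11.9% (54.0%, 65.2% and 50.2% before) lay below the 29.7%, 35.3% and 33.2% of the T cell-like class (55.6%, 48.5% and 50.1% before), and no level of Ctsl in Aire+ cells is read from it. Unlike Psmb11, most Ctsl UMIs of WT-Control came from outside the cTEC-like class, 52.8% from CCL21+ mTEC-like and 19.1% from cTEC-like cells, whereas in Cd40-/- RANKL-Ab the cTEC-like class gave 40.8%.

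Ctss (ENSMUSG00000038642, chr3:95526786-95556403, + strand, which holds the pseudogene Hmgb1-ps5) had a medullary distribution. Its level in the Aire+ mTEC-like class was 322, 299 and 296 CPM in the first 3 libraries, and in WT-Control it was as high in the enterohepatic-like class (325 CPM) and the neuroendocrine-like class (317 CPM), whose intervals overlapped it. The microfold-like class followed at 182, 170 and 162 CPM. At the other end of the order of classes with at least 20 cells were the cTEC-like class at 39.1 CPM and the progenitor-like class at 37.6 CPM, with overlapping intervals. The 17 cells with both cTEC and T cell markers were not ranked and held 4 Ctss UMIs of 446970, a lower level. The cTEC-like class was 8.23-fold below the Aire+ mTEC-like class (6.17 to 11.3) and 2.14-fold below the CCL21+ mTEC-like class (1.60 to 2.93). After thinning, Ctss was found in 25.1%, 21.8% and 24.0% of Aire+ mTEC-like cells (81.9%, 60.2% and 79.4% before), at median depths of 11732, 6229 and 9924 UMIs. In cTEC-like cells it was found in 4.55%, 0.272%, 1.64% and 0% (15.7%, 5.47%, 6.30% and 6.59% before), the last being 0 of 258 thinned cells, which allows up to 1.16% of cells with a UMI at that depth. The T cell-like class gave 10.9%, 0.526%, 3.1% and 0% (36.1%, 1.73%, 6.13% and 1.08% before), with 0 of 165 cells allowing up to 1.82%. Before thinning the cTEC-like share was the higher in all libraries but WT-Control, so the order of these classes for Ctss depends on depth and is not read. The 250 bases before the Ctss start are shown because Ctss is the member whose level in CCL21+ mTEC-like cells was lowest in Cd40-/- RANKL-Ab. They hold 1 copy of the core of the interferon-stimulated response element (GAAA, any 2 bases, GAAA), in capitals, 21 bases before the start. That core was found on either strand in 3.0% of the 32851 promoters and overlaps no other motif searched here.
Ctss promoter, chr3:95526536-95526785, + strand: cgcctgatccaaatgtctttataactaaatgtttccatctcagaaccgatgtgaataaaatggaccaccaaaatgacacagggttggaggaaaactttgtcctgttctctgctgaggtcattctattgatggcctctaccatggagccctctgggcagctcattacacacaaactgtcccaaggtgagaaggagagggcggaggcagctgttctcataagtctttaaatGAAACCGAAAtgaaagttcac

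Ctsh (ENSMUSG00000032359, chr9:90054152-90076089, + strand) was also higher in medullary classes but peaked elsewhere, with the microfold-like class at 1527, 1348 and 1692 CPM and enterohepatic-like cells at 712, 1394 and 813 CPM. The microfold-like class was first in both control IgG libraries, and in WT-RANKL-Ab the intervals of these classes overlapped. Aire+ mTEC-like cells came next at 580, 279 and 608 CPM. In WT-Control the microfold-like class was 2.63-fold above the Aire+ mTEC-like class (2.52 to 2.74), and these 3 classes were apart from each other beyond their intervals. The cTEC-like class was last of the 12 classes with at least 20 cells, at 40.0 CPM. It was 14.5-fold below the Aire+ mTEC-like class (10.9 to 19.7) and 1.69-fold below the CCL21+ mTEC-like class at 67.7 CPM (1.27 to 2.31). Cells with cTEC and T cell markers (9 Ctsh UMIs of 446970) and with cTEC and CCL21+ markers (6 of 207488), 17 of each, were lower and not ranked. After thinning, Ctsh was found in 62.3%, 64.5% and 76.2% of microfold-like cells (84.5%, 78.4% and 81.3% before) and in 1.14%, 1.09%, 1.46% and 0.388% of cTEC-like cells (10.8%, 4.17%, 4.57% and 3.66% before). The T cell-like share of Ctsh varied, at 17.2%, 0%, 5.75% and 1.21% (29.2%, 1.30%, 7.52% and 1.62% before), where 0 of 190 cells allows up to 1.58%.

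**Figure D3:**
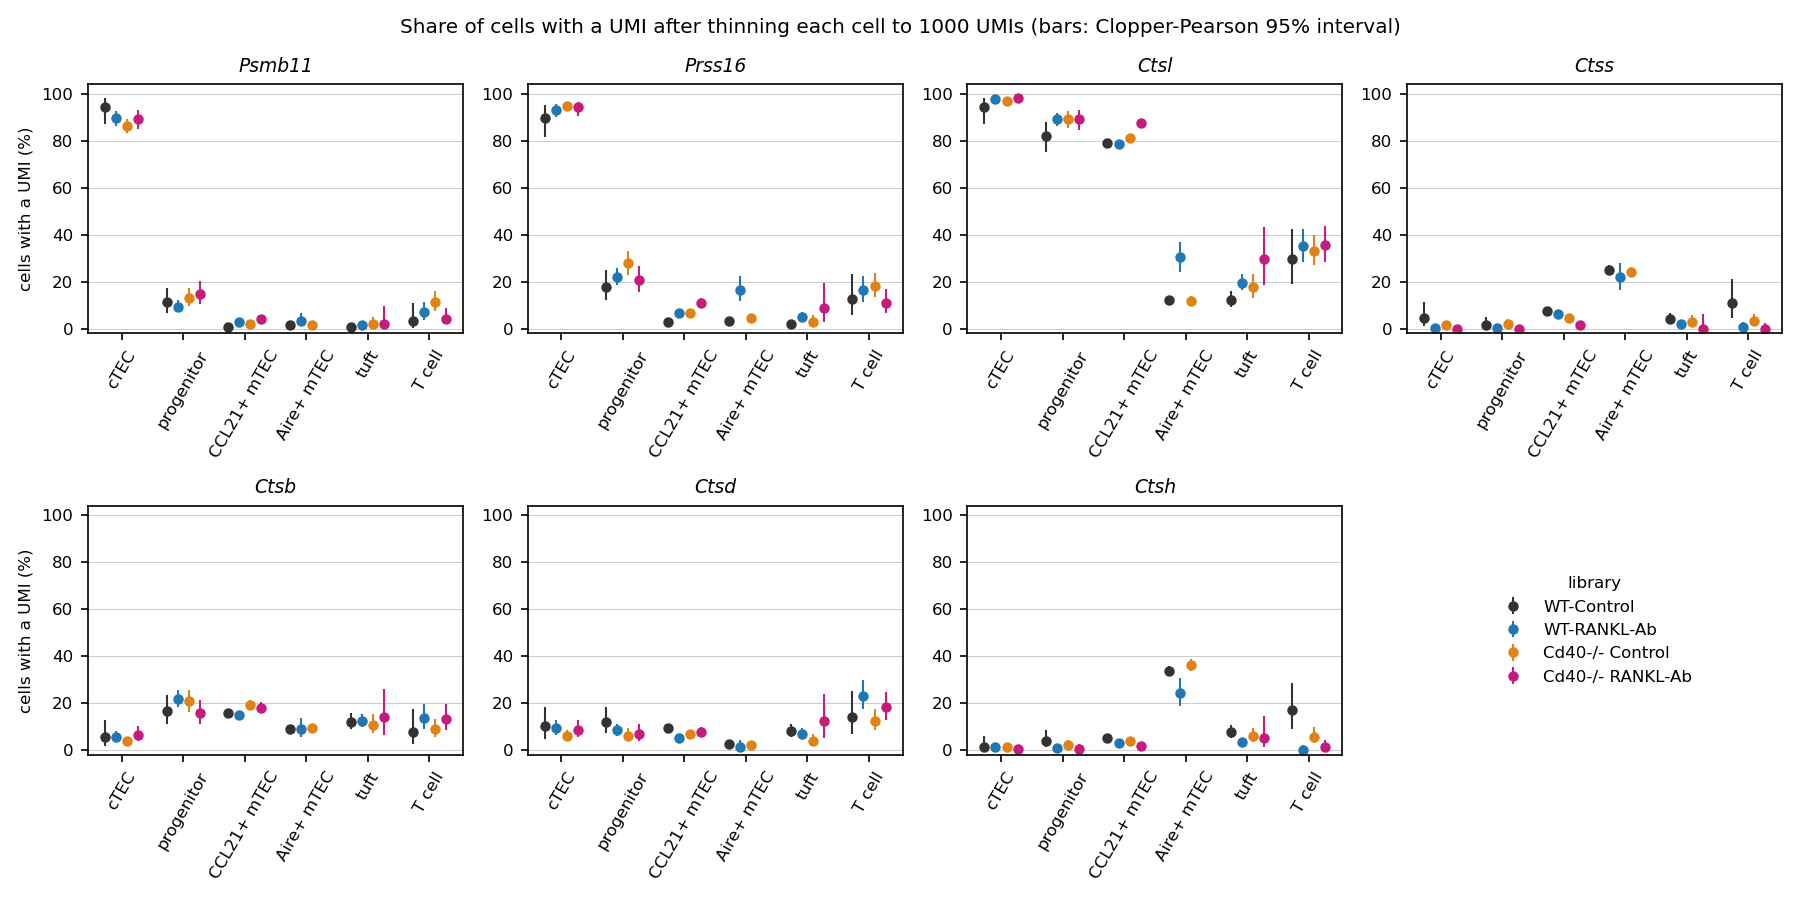
Percent of cells with at least 1 UMI of each protease after thinning every cell to 1000 UMIs, in 6 classes and each library, with exact 95% intervals. Psmb11 and Prss16 reach at least 86.5% in the cTEC-like class and Psmb11 is at or below the T cell-like share in the medullary classes, while Ctss and Ctsh are at most 4.55% in the cTEC-like class.

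Ctsb (ENSMUSG00000021939, chr14:63122462-63145923, + strand, overlapped on the other strand by Fdft1) ran against the cortical proteases, with its lowest level in the cTEC-like class at 58.7, 61.1, 62.5 and 64.1 CPM. It was highest in the progenitor-like class of WT-Control at 191 CPM, and neighbours in its order overlapped in 10 of 11 steps, so its order among the other classes is not resolved. The CCL21+ mTEC-like class exceeded the cTEC-like class 2.88-fold in WT-Control (2.27 to 3.71), and by 2.78-fold, 3.32-fold and 2.95-fold in the other libraries. Of the 7 members, Ctsb had the steadiest ratio between these classes over the 4 libraries. Ctsd (ENSMUSG00000007891, chr7:142375911-142388038, - strand) lies over the protein-coding gene Gm49369 on the same strand, so its counts are uncertain. Its highest levels were in the microfold-like class (294, 237 and 220 CPM) and the keratinocyte-like class (206, 295 and 133 CPM), and the Aire+ mTEC-like class stood low at 28.4, 15.5 and 22.3 CPM. The microfold-like class was 10.3-fold above the Aire+ mTEC-like class in WT-Control (9.23 to 11.6), and the cTEC-like class was 3.26-fold above it (2.65 to 3.99). Between the cTEC-like and CCL21+ mTEC-like classes of WT-Control the Ctsd levels of 92.8 and 94.4 CPM did not differ beyond counting error (1.02-fold lower, 0.840 to 1.24). In the same 250-base windows the E-box CACGTG, found in 6.0% of promoters, occurred 1 time for Ctsl, 236 bases before the start, and 2 times for Ctsd, which also held GACGC 2 times. Of these windows, 48 bases for Ctsl and 211 for Ctsd lie in annotated non-coding exon sequence of the same gene, so they too are not upstream of every transcript.

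The contrast between cortex and medulla is set against all genes by a 2-fold limit on the log2 ratio with 1 CPM added, among genes with at least 20 UMIs in the 2 sums together. Between the cTEC-like and CCL21+ mTEC-like classes of WT-Control, 3 of 7 members were above the limit (Psmb11, Prss16 and Ctsl) where 11.7% of 13959 genes were, and 2 were below it (Ctss and Ctsb) where 19.4% were. Between the cTEC-like and Aire+ mTEC-like classes, 4 were above (the same 3 and Ctsd) against 14.6% of 17506 genes, and 2 below (Ctss and Ctsh) against 32.1%. Between the CCL21+ and Aire+ mTEC-like classes, 2 were above (Ctsl and Ctsd) against 11.4% of 18204 genes, and 3 below (Psmb11, Ctss and Ctsh) against 25.7%. With 7 members, a count of 2 or 3 below the limit is close to these background shares, and the counts above it rest on Psmb11, Prss16, Ctsl and Ctsd. The classes being compared share their library, and 1 library stands behind each count.

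The make-up of each protease group differed between the classes as well. Among UMIs of the interchangeable catalytic subunit genes Psmb5 (constitutive), Psmb8 (immunoproteasome) and Psmb11, the Psmb11 share in the cTEC-like class was 85.5%, 86.7%, 87.6% and 88.0%. It was 22.9%, 30.3%, 33.4% and 32.1% in the progenitor-like class and 0.789%, 6.81%, 4.30% and 13.2% in the CCL21+ mTEC-like class. Psmb8 took 62.8%, 46.9%, 58.8% and 42.5% in the CCL21+ mTEC-like class, and 56.2%, 49.9% and 57.4% in the Aire+ mTEC-like class, against 2.37% to 3.68% in the cTEC-like class. Among UMIs of the 5 cathepsins, the Ctsl share was 98.9% to 99.2% in the cTEC-like class, 87.0% to 91.3% in the CCL21+ mTEC-like class, and 14.5%, 32.7% and 16.0% in the Aire+ mTEC-like class. Ctsh held 47.9%, 26.3% and 49.0% of cathepsin UMIs in the Aire+ mTEC-like class and 64.5%, 63.1% and 71.1% in the microfold-like class. Each share is compared between classes and not between genes.

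Within the cTEC-like class set by marker limits, the cortical proteases were close between Cd40-/- RANKL-Ab and WT-Control, but this depends on how the class is drawn. Against WT-Control, Cd40-/- RANKL-Ab had 1.16-fold less Psmb11 (1.12 to 1.21), 1.14-fold less Ctsl (1.12 to 1.16) and a Prss16 level that did not differ beyond counting error (1.01-fold, 0.990 to 1.04). With clusters in place of limits, which put 302 rather than 102 cells of WT-Control in the class, the log2 ratio became 1.05 for Psmb11 and 1.31 for Prss16, both past the 2-fold limit, and 0.46 for Ctsl. Ctsb was 1.09-fold higher (0.827 to 1.46) and Ctsd 1.15-fold lower (0.909 to 1.44), both within counting error. None of 7 members was above the 2-fold limit, as 5.57% of 9968 genes were, and 2 were below it, Ctss and Ctsh, as 2.53% of genes were. Ctss in this class stood at 39.1, 6.85, 11.6 and 6.63 CPM and Ctsh at 40.0, 4.38, 13.8 and 3.16 CPM, so WT-Control was the highest for both. Cd40-/- RANKL-Ab was 5.91-fold below WT-Control for Ctss (3.45 to 10.4, from 21 and 46 UMIs) and 12.7-fold below for Ctsh (6.32 to 28.1, from 10 and 47 UMIs). Both rest on few UMIs and few cells of WT-Control. Removing the 5% highest Scrublet (doublet) scores left 98 of its 102 cells but 14 of its 46 Ctss UMIs and 10 of its 47 Ctsh UMIs, and the log2 ratio went from -2.40 to -0.87 for Ctss and from -3.30 to -1.63 for Ctsh. With limits raised 2-fold it was -0.87 and -1.15, and without cells with a UMI of Aire or Lyz2, a choice made after seeing the data, -0.89 and -1.67. In these 3 settings Ctss was within the 2-fold limit and Ctsh had under the 20 UMIs that a call needs, so neither call held.

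Markers of other cells moved with Ctss and Ctsh in these cells. Aire itself was at 30.6, 2.74, 18.9 and 1.58 CPM in the cTEC-like class, and Lyz2, a myeloid gene that the Aire+ mTEC-like class also held at 728, 448 and 856 CPM, at 27.2, 6.03, 16.2 and 0.631 CPM. The summed myeloid list, of which 6, 7, 7 and 7 of 8 markers were detected, was at 64.7, 11.5, 35.8 and 12.0 CPM. Cells past the cTEC limits, and not past those for T cell or CCL21+ markers, entered this class whatever their Aire+ mTEC markers. Beyond leaving out cells with a UMI of Aire or Lyz2, given above, the part of such cells and RNA in the result was not tested.

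The progenitor-like class showed the same members past the limit, with Ctss at 37.6, 4.80, 27.5 and 6.45 CPM and Ctsh at 87.5, 6.60, 69.7 and 3.23 CPM. Here the RANKL-Ab libraries were low and the control IgG libraries high, for both genes and without overlap of their intervals. Cd40-/- RANKL-Ab was 5.83-fold below WT-Control for Ctss (3.02 to 12.1) and 27.1-fold below for Ctsh (12.0 to 75.6), while Cd40-/- Control was within counting error of WT-Control for both (1.37-fold lower for Ctss, 0.890 to 2.10, and 0.955 to 1.64 for Ctsh). None of the members was above the limit, as 4.67% of 9701 genes were, and 2 were below, as 3.91% were. Lyz2 followed the same order at 175, 6.60, 89.5 and 2.15 CPM, as did Aire at 35.0, 0.600, 23.6 and 0.538 CPM and the summed myeloid list, with 7, 6, 6 and 4 of 8 markers detected, at 258, 13.5, 109 and 6.45 CPM. Without cells with a UMI of Aire or Lyz2, the log2 ratio of Ctss was -0.22 and that of Ctsh -3.01, and with limits raised 2-fold they were -0.91 and -2.69, against -2.37 and -4.39 as reported, so the call on Ctss did not hold in either. The part of these cells in the result was otherwise not tested. The cortical proteases of this class were closer between conditions, with Psmb11 at 158 to 188 CPM and Prss16 1.38-fold, 1.73-fold and 1.28-fold above WT-Control.

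**Figure D4:**
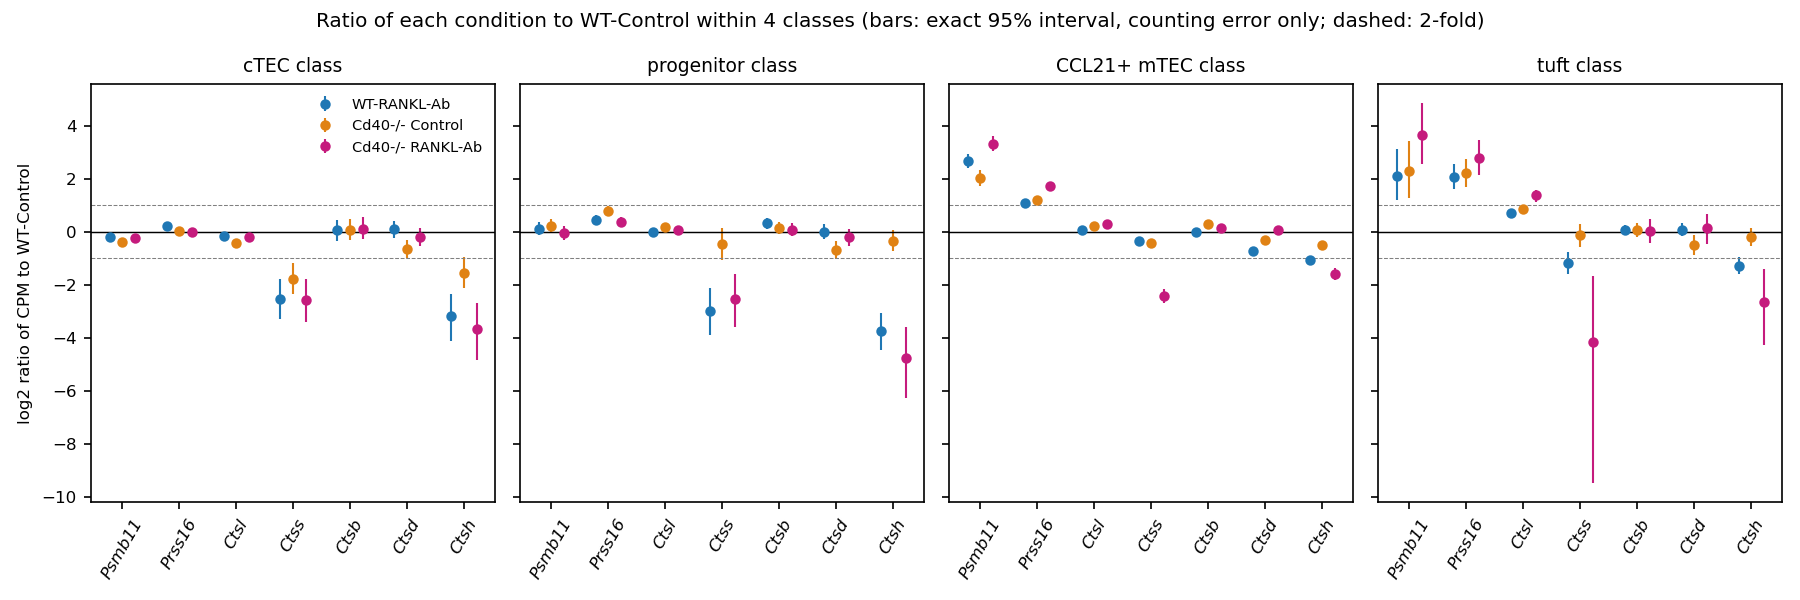
Log2 ratio of each of the 3 other libraries to WT-Control for each protease in the cTEC-like, progenitor-like, CCL21+ mTEC-like and tuft-like classes, with exact 95% counting intervals and dashed lines at the 2-fold limit. Psmb11, Prss16 and Ctsl lie near 0 in the cTEC-like class and Psmb11 lies furthest above 0 in the CCL21+ mTEC-like and tuft-like classes, while Ctss and Ctsh lie below 0.

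The CCL21+ mTEC-like class, the largest class of Cd40-/- RANKL-Ab with 1005 cells, had 4 of 7 members past the limit. Psmb11 and Prss16 were above it, as 4.08% of 14212 genes were, and Ctss and Ctsh below it, as 8.23% were. Ctss stood at 83.7, 66.0, 62.7 and 15.6 CPM, so the 2 libraries with 1 intervention were close to each other and to WT-Control, at 1.27-fold and 1.34-fold less, and Cd40-/- RANKL-Ab stood apart. It was 5.35-fold below WT-Control (4.48 to 6.44, from 130 and 2043 UMIs), 4.22-fold below WT-RANKL-Ab (3.52 to 5.08) and 4.0-fold below Cd40-/- Control (3.32 to 4.86). Ctsh, at 67.7, 32.3, 47.7 and 22.6 CPM, was 2.99-fold below WT-Control (2.57 to 3.50) and 2.11-fold below Cd40-/- Control. In this class Aire was at 32.6, 6.84, 17.2 and 0.481 CPM, Lyz2 at 51.1, 10.0, 43.5 and 3.85 CPM, and the summed myeloid list, with 7 or 8 of 8 markers detected, at 76.5, 18.1, 62.2 and 8.43 CPM. WT-RANKL-Ab was lower than Cd40-/- Control for Ctsh, as for Aire, Lyz2 and the myeloid list, and close to it for Ctss. Without cells with a UMI of Aire or Lyz2 the log2 ratio of Cd40-/- RANKL-Ab to WT-Control was -2.09 for Ctss and -1.12 for Ctsh, against -2.35 and -1.54 with them. The part of these cells and of their RNA in the result was otherwise not tested.

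Psmb11 in the CCL21+ mTEC-like class was at 5.49, 34.8, 22.5 and 54.6 CPM, 9.95-fold higher in Cd40-/- RANKL-Ab than in WT-Control (8.19 to 12.2), and Prss16 was 3.28-fold higher (3.01 to 3.58). The other libraries were between, with Psmb11 6.34-fold (5.28 to 7.67) and 4.10-fold higher (3.32 to 5.09) and Prss16 2.10-fold and 2.27-fold higher. As given above, the shares of these cells with a Psmb11 or Prss16 UMI exceeded those of the T cell-like class in some libraries before thinning and in none after it. The T cell-like level, which is not a background level, was 212, 290, 211 and 129 CPM for Psmb11 and 952, 1427, 1244 and 427 CPM for Prss16. As a percent of the cTEC-like level of the same library, the CCL21+ mTEC-like level was 0.151%, 1.09%, 0.804% and 1.75% for Psmb11, 0.529%, 0.947%, 1.16% and 1.71% for Prss16, and 0.502%, 0.834%, 0.889% and 1.33% for the cTEC chemokine Ccl25. For Tbata, another gene high in cTEC-like cells, it was 1.19%, 3.05%, 2.18% and 2.43%, highest in WT-RANKL-Ab. The summed cTEC marker list, with 7 or 8 of 8 detected, was at 584, 1210, 807 and 1225 CPM in CCL21+ mTEC-like cells. The share of cTEC-like cells per library was 0.998%, 5.36%, 7.39% and 13.1%. WT-RANKL-Ab was below Cd40-/- Control in this share, as for Prss16 in CCL21+ mTEC-like cells, but above it for Psmb11. The summed progenitor list, 4 of 4 detected, was at 234, 339, 453 and 1119 CPM in CCL21+ mTEC-like cells. The part of cTEC-like and progenitor-like RNA in the result was not tested.

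The tuft-like class had the same pattern for the cortical proteases. Psmb11 stood at 3.82, 16.3, 19.0 and 48.4 CPM, Prss16 at 14.7, 61.5, 67.8 and 102 CPM and Ctsl at 218, 355, 393 and 563 CPM. Relative to WT-Control, Cd40-/- RANKL-Ab was 12.7-fold higher for Psmb11 (5.83 to 28.6, from 19 and 12 UMIs), 6.95-fold for Prss16 (4.43 to 10.9) and 2.59-fold for Ctsl (2.21 to 3.01). Ctsb was level, at 121, 127, 128 and 125 CPM. The summed cTEC marker list, with 6 to 8 of 8 detected, was at 252, 299, 510 and 517 CPM in this class, and its part in the result was not tested. Ctss was at 1 UMI in the 58 tuft-like cells of Cd40-/- RANKL-Ab against 142 UMIs in WT-Control, a ratio 17.8-fold lower with a counting interval of 3.14 to 706, where Lyz2 was at 5.09 against 70.4 CPM. In the Aire+ mTEC-like class of WT-RANKL-Ab, Psmb11, Prss16 and Ctsl were 2.67-fold, 3.53-fold and 1.97-fold above WT-Control and Ctsh 2.08-fold below (1.89 to 2.30), while in Cd40-/- Control the largest difference was 1.82-fold, for Prss16. Ctss in Aire+ mTEC-like cells thus stayed within 296 to 322 CPM in the 3 libraries that held more than 4 of them.

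Cells that passed the limits for both cTEC and CCL21+ markers numbered 17, 136, 58 and 63. Their Psmb11 level was 680, 1039, 713 and 1643 CPM and their Prss16 level 1798, 1925, 2679 and 2855 CPM, between those of the single classes. Their Ctsl level was 18025, 13823, 20139 and 15887 CPM, against 20841, 18477, 15785 and 18316 CPM in cTEC-like cells. It was above the cTEC-like level in Cd40-/- Control and below it in the other libraries. These differences were beyond the intervals in the libraries with at least 20 such cells. These values do not tell apart cells with both programs from droplets with RNA of both kinds of cell.

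The cTEC-like class itself held barcodes of unlike quality. Those with under 0.5% mitochondrial UMIs made up 38.2%, 25.8%, 25.2% and 22.0% of it, at median totals of 2403, 4507, 2574 and 2296 UMIs against 15437, 9521, 8158 and 12483 for the rest. Psmb11 was higher in the low-mitochondrial barcodes (4106, 4315, 3879 and 4046 CPM) than in the rest (3557, 3023, 2657 and 3040 CPM). Prss16 was lower in them, at 2780, 2797, 3240 and 2740 CPM against 8322, 9990, 8525 and 8143 CPM, and Ctsl was lower as well, at 9922 to 11546 against 16363 to 22413 CPM. Psmb11 thus made up 59.6%, 60.7%, 54.5% and 59.6% of the joint Psmb11 and Prss16 UMIs in these barcodes and 29.9%, 23.2%, 23.8% and 27.2% in the rest. At matched depth, from 2000 to 6000 UMIs, the shares were 57.1%, 55.9%, 59.8% and 51.6% against 24.8%, 18.1%, 16.8% and 17.1%. The nuclear RNA Malat1 was at 313 to 1319 CPM in the low-mitochondrial barcodes and at 15160 to 24218 CPM in the rest. In Cd40-/- Control, which held 160 such barcodes, 3 of 7 members were below the 2-fold limit, Prss16, Ctsb and Ctsd, as 34.0% of 10119 genes were, a share close to that of the members.

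**Figure D5:**
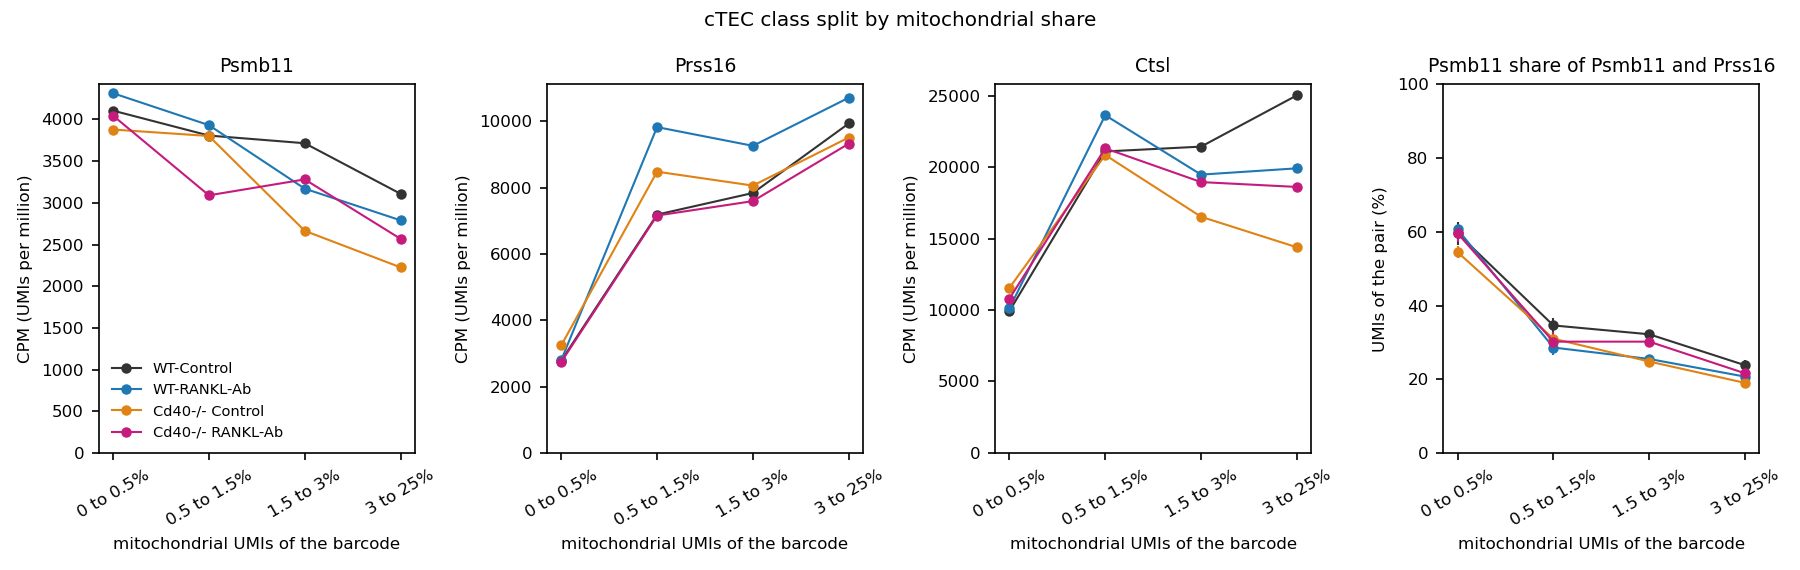
Psmb11 as a percent of the joint Psmb11 and Prss16 UMIs in cTEC-like barcodes, by their mitochondrial UMI share, for each library with exact 95% intervals. Barcodes under 0.5% sit at 54.5% to 60.7%, above all other bins of all 4 libraries.

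Other genes of these pathways were taken from 4 lists. Of 14 other lysosomal proteases, 12 could be compared between the cTEC-like and CCL21+ mTEC-like classes of WT-Control, with 1 above and 8 below the 2-fold limit and a median log2 ratio of -1.10 against -0.10 over all genes. Among those below it were Ctsa, the serine carboxypeptidase cathepsin A (6.81 against 38.3 CPM), Ctsc, the dipeptidyl peptidase cathepsin C (10.2 against 51.9 CPM), and Ctsz, cathepsin X (24.7 against 88.7 CPM). Between the cTEC-like and Aire+ mTEC-like classes, 9 of 14 were below the limit and 1 above, with Ctsz 16.4-fold lower. Of the inhibitors and the reductase of the endolysosome, Cstb, cystatin B, which inhibits cathepsins L, B and H, was at 14884 CPM in the cTEC-like class against 1060 CPM in the CCL21+ mTEC-like class (14.0-fold, 13.8 to 14.3) and 1233 CPM in the Aire+ mTEC-like class. Cst6, cystatin M, was 4.13-fold higher in the cTEC-like than in the CCL21+ mTEC-like class (3.58 to 4.76), and 2 of 6 genes of this list were above and 1 below the limit there, with a median of -0.11.

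Of 10 proteasome genes, 3 were above and 2 below the limit between the cTEC-like and CCL21+ mTEC-like classes, with a median of 0.49. The immunoproteasome subunit genes Psmb10 (1892 against 325 CPM) and Psmb9 (1006 against 287 CPM), whose products assemble with beta5t, were higher in the cTEC-like class. Psmb8, whose product takes the same place as beta5t, was 3.02-fold lower, at 145 against 437 CPM, and the activator subunit Psme1 was 5.87-fold lower. Of 17 lysosome biogenesis genes, 3 were above and 3 below, with a median of 0.10, and the membrane protein gene Lamp2 stood out at 1108 against 245 CPM. Between the cTEC-like and Aire+ mTEC-like classes the last 3 lists had 1, 3 and 4 genes above and 6, 4 and 2 below, and between the CCL21+ and Aire+ mTEC-like classes the 4 lists had 0, 0, 0 and 2 above and 5, 5, 2 and 1 below. Between Cd40-/- RANKL-Ab and WT-Control few were past the limit in the cTEC-like class, 2 lysosomal proteases, both lower. They were Ctsz at 4.10 against 24.7 CPM and Ctsc at 4.10 against 10.2 CPM. The sums held 3168336 and 1175176 UMIs, so both rest on few UMIs. In the progenitor-like class 5 genes were lower, Ctsz, Cst6, Psmb8, Psme2 and Npc2. Over all genes, 2.53%, 3.91% and 8.23% were below the limit in the cTEC-like, progenitor-like and CCL21+ mTEC-like classes. The list genes were not put through the other settings, some of which undid the Ctss and Ctsh calls in the cTEC-like class. In the CCL21+ mTEC-like class Cst6 (7.22 against 48.4 CPM), Stfa3, Psmb8 (176 against 437 CPM) and Psme2 were lower and Scpep1 was higher, and the proteasome list had a median of -0.55 against 0.07 over all genes.

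Over the 54 sums of a class in a library with at least 100000 UMIs and 20 cells, the members fell into groups by their log2 levels. Psmb11 and Prss16 had Pearson's r of 0.98, and Ctsl had 0.90 with each of them. Ctss and Ctsh had 0.88, and Ctsl and Ctsh -0.74. Ctsd was the member least like the others, at 0.34 or less. The genes most like Psmb11 among 13022 were Tmem131l (0.95), Syngr1 (0.94) and Ndrg3 (0.94), and those most like Prss16 were Syngr1 (0.94), Tmem131l (0.94) and Diras2 (0.93). Ctsl was most like Synm (0.95), Kcnk2 (0.95) and Gatsl3 (0.94). Ctss was most like Muc1 (0.95), Ncf4 (0.94) and Calcb (0.94), and Ctsh most like Bcl2a1d (0.94), Tm4sf5 (0.94) and Csn2 (0.93). Ctsb, at 0.78 with Plpp2, 0.75 with Rhoc and 0.74 with Pbxip1, and Ctsd, at 0.67 with Ly6k, Ahr and Cln8, had no gene as close. The sums share libraries and free RNA, so these values are a description without a test.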

How the data were processed

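The authors pooled thymic cells of 3 mice per library, made 10x 3' libraries (kit version 3.1 in the study's methods, 2 in the labels), trimmed reads with Fastp and counted UMIs on mm10 with Cell Ranger (5.0.1 in the file headers, 5.1 in the submitters' processing notes). The deposited values are raw UMI counts per gene and barcode, used unrounded. Here a gene had to be found in more than 5 cells, and a cell needed 200 genes and no more than 25% mitochondrial UMIs. Cells were put in classes by limits on marker genes, none of them a member. The members and lists were chosen with earlier results of these data known. Counts were summed per class and library and given as CPM, with exact Poisson intervals, exact conditional binomial intervals for ratios and Clopper-Pearson intervals for shares, at 95%. There is no test between conditions. No doublet caller was applied to the values reported, and no cell column was without a sample. Scripts were tested on simulated data. Named genes were the members, the 3 genes most like each, and from each list up to 4 genes past the 2-fold limit by size, together with the subunit genes used in shares. Gene positions are GENCODE M21, promoters RefSeq. For Prss16, Ctsb and Ctsh no promoter is shown. Tools were R 4.3.3 with edgeR 4.0.16 (TMM factors only), scanpy 1.11.5, matplotlib 3.10.9, pandas 2.3.3, scipy 1.17.1, numpy 2.4.6 and Python 3.11.15. Alternatives were another mitochondrial limit (13%), clusters (2000 variable genes, 30 components, 15 neighbours, resolution 1.5) in place of limits, limits raised 2-fold, TMM, means over cells, removal of the 5% highest Scrublet scores, cells with 2000 UMIs, totals without the 20 most abundant genes, 10 CPM added, a minimum of 100 UMIs per gene, thinning to 2000 UMIs, Spearman's rho, and 3 added after seeing the data.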

Additional observations from a re-analysis of the deposited data

How the results depend on the processing

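Of 133 ratios of members between classes or conditions, 73 were at least 2-fold apart. The 12 other settings kept between 63 and 73 of them in the same direction, except that clusters gave 112 of the ratios and kept 67 of 69, and none was reversed. Raising the limits 2-fold lost 10, leaving out cells with a UMI of Aire or Lyz2 lost 9, removing the 5% highest Scrublet scores lost 7, and leaving out barcodes found in more than 1 library lost 1. The count of 2 members apart in the cTEC-like class between Cd40-/- RANKL-Ab and WT-Control became 0 with limits raised 2-fold, 0 without the highest Scrublet scores, 0 with a minimum of 100 UMIs and 0 without cells with a UMI of Aire or Lyz2, and 4 with clusters (Psmb11, Prss16, Ctss and Ctsh). At the minimum of 100 UMIs their sums of 67 and 57 fell short, and in the other 3 settings with none Ctss was within the 2-fold limit and Ctsh had 16 or 17 UMIs. In the progenitor-like class the count of 2 became 1 (Ctsh) with limits raised 2-fold, 1 with the minimum of 100 UMIs and 1 without cells with a UMI of Aire or Lyz2, and clusters gave no such class in WT-Control. The 4 members of the CCL21+ mTEC-like class were past the limit in every setting. Without thinning, 351 of 427 shares of cells lay above the interval of the thinned share, which depth sets by construction. Of the 50 genes most like a member, 31 to 40 were shared between Pearson's r and Spearman's rho. No paired analysis was possible because every group has 1 library, and for the same reason no replicate could be left out.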
